A study of Homo sapiens with 6 samples.

Results

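The genes that build epithelial cell junctions and cell polarity were examined in HGC-27 cells with and without knockdown of ACAT2, the cytosolic acetyl-CoA acetyltransferase. The set was a written list of 29 genes together with all 24 protein-coding claudin genes of the annotation, which made 53 of the 58735 genes in the deposited table. The list was made of desmosome, tight junction, gap junction, catenin and polarity genes, the adhesion molecule EPCAM, and regulators that keep the epithelial state. HGC-27 is an established line of undifferentiated human gastric carcinoma. One group of 3 libraries came from cells carrying pSIH-H1-Puro-shACAT2, a vector for a short hairpin RNA against ACAT2, and the other group of 3 libraries from cells carrying the control pSIH-H1-Puro-shNC. Cells of both groups received the vector for 24 hours and were then selected with puromycin for 7 days, and the genotype was otherwise wild type. Only 1 cell line was sequenced, and the labels do not state which hairpin sequence the shACAT2 cells carried. The libraries are described as biological replicates, but separate cultures are not described, so the p-values measure the spread between these libraries. Values are FPKM, fragments per kilobase of exon, scaled for library size.

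Epithelial cells hold together through several kinds of junction. Desmosomes join the keratin filaments of neighbouring cells through desmosomal cadherins, plakoglobin, plakophilins and desmoplakin, while adherens junctions join actin filaments through classical cadherins and catenins. Tight junctions, made of claudins, occludin and junctional adhesion molecules on a scaffold of zonula occludens proteins, seal the space between cells, and gap junctions let small molecules pass. In gastric epithelium these structures separate the acid lumen from the tissue, and the Scribble, Par and Crumbs complexes place them along the apical-basal axis. SNAIL and ZEB repressors are known to act on many of these genes through E-box sequences during epithelial-mesenchymal transition.

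The knockdown was checked first. ACAT2 was at 14.2, 11.7 and 12.7 FPKM in shNC-1 to shNC-3 and at 6.19, 5.46 and 6.05 FPKM in shACAT2-1 to shACAT2-3. No shACAT2 value reached the lowest shNC value, and the log2 fold change was −1.01 (SE 0.10, limma adjusted p = 0.00594). The adjusted p was 0.0512 without shNC-3. Libraries held 14086416 to 16067486 fragments assigned to genes. Within groups, shNC-2 and shNC-3 were closest, with a chi-square of 1.73 per gene against 12.1 to 46.0 for the other pairs. The library shACAT2-3 stood apart in another way: 7477 genes had a fragment in it alone, against 416 to 657 in each of the other libraries. Of the 53 junction and polarity genes, 50 had a fragment in shACAT2-3 and 38 to 41 in each of the others.

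Of the 53 genes, 18 reached a mean of 1 FPKM in at least 1 group and were tested together with all 13832 such genes. Only 1 of the 18, DSP, passed the test at a limma adjusted p below 0.05, and it was lower in shACAT2 cells. This is 5.56% of the tested genes of the set, and 5.1% of all genes tested passed in either direction, 3.3% higher and 1.81% lower. At an unadjusted p below 0.05 there were 5 of the 18, with CTNNA1 and DSC2 higher and DSP, DSG2 and PKP2 lower, or 27.8% against 23.5% of all genes tested. With an absolute log2 fold change above 1 and an unadjusted p below 0.05, DSP alone remained, and 1.5% of all genes tested met that rule. The shACAT2 and shNC values did not overlap for 7 of the 18 genes (38.9%), 3 higher and 4 lower, against 30.7% of all genes tested. DSP also was the only gene of the set to pass when shACAT2-3 was left out, or when shNC-2 and shNC-3 were averaged as 1 sample. The first of these fits had 704 of 13797 genes passing and the second only 83 of 13838, so the second says less about the other genes of the set. The median log2 fold change of the 18 genes was −0.11, against 0.02 over all genes tested. It was −0.02 without shACAT2-3, −0.06 without shACAT2-1 and −0.18 without shACAT2-2. Over all genes tested, the medians of those fits were 0.05, −0.007 and 0.02. The genes DSP, PKP2 and CLDN7 passed the filter through the shNC group alone, so these counts do not describe all 53 genes.

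Replicate numbers were taken to pair the libraries, because the deviations of same-numbered libraries from their group means correlated above 0.1. Crossed pairs did so too, shNC-2 with shACAT2-3 at 0.198 and shNC-3 with shACAT2-2 at 0.141, against 0.126 for shNC-2 with shACAT2-2. The pairing is therefore uncertain, as are the results that rest on it. When this pairing entered the model as a block, 3 of the 18 genes (16.7%) passed, against 12.5% of all genes tested. These were DSP and DSG2, lower, and CTNNA1, higher. When the FPKM filter was replaced by a minimum of 10 fragments in each library, 26 genes of the set were tested and 4 (15.4%) passed, against 7.18% of all genes in that fit. A further fit, limma-voom on the fragments of all genes with at least 10 fragments in 3 libraries, was chosen after the values had been seen and reached 29 of the 53 genes. Of these, 4 (13.8%) passed, all lower in shACAT2 cells, against 7.09% of all genes in that fit. In both of these fits the genes were DSP, PKP2, OCLN and F11R.

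**Figure D1:**
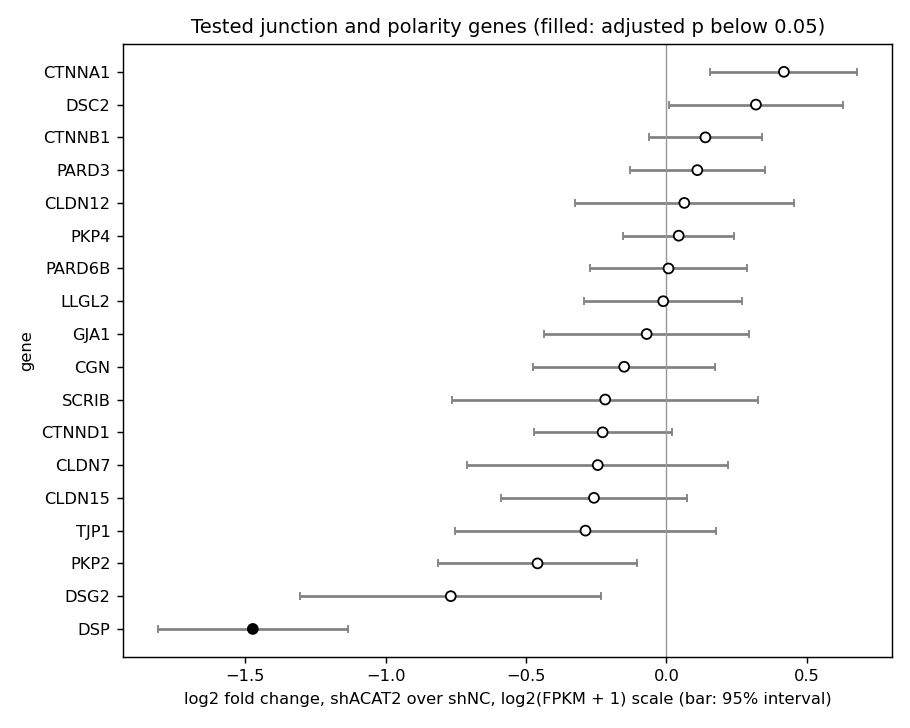
Log2 fold change on the log2(FPKM + 1) scale, shACAT2 against shNC, of the 18 junction and polarity genes tested, with 95% confidence intervals from limma. DSP lies farthest from 0 at −1.47, and it alone has an adjusted p below 0.05 in this fit, which has no replicate block.

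DSP encodes desmoplakin, the plaque protein that links desmosomes to keratin filaments, and its gene occupies positions 7541575 to 7586717 of the plus strand of chromosome 6 (GRCh38). The bases directly before its annotated start hold the sequence CAGGTG, the reverse complement of the E-box CACCTG that SNAIL and ZEB factors recognise. DSG2, a desmosomal cadherin, has the same letters before its start. DSP and DSG2 had the lowest log2 fold changes of the desmosome genes on the log2(FPKM + 1) scale. With limma-voom PKP2 (−0.94) was lower than DSG2 (−0.83). Stretches were sought for DSP, DSG2, PKP2, OCLN and F11R, and those shown are the ones that hold CAGGTG. They are RefSeq promoter sequences of GRCh38.p14, 5′ to 3′ on the plus strand, for chr6:7541421-7541574 (154 bases) and chr18:31497927-31498042 (116 bases), with bases of annotated exons left out and CAGGTG in capitals.
DSP: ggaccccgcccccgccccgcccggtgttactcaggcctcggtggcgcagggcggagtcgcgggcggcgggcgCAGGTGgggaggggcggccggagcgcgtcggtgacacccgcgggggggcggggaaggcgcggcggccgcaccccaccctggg
DSG2: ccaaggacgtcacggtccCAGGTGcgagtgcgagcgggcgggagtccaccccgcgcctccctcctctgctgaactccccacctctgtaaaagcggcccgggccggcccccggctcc
RefSeq promoters matched 35 of the 53 genes at 54 starts, and 18 genes had no match, PKP2 and F11R among them. In the 250 bases before the start, CACCTG on either strand was present at 13 of the 54 starts (24.1%), against 17.5% of 35116 RefSeq starts. These starts belong to 12 genes of the set, which besides DSP and DSG2 were DSC2, JUP, OCLN, TJP1, TJP3, CRB3, CLDN7, CLDN14, CLDN18 and CLDN25, so the letters were present before genes above and below 0 in log2 fold change. For OCLN the letters lie in bases of annotated exons. Its stretch without exon bases, chr5:69492660-69492789 (130 bases), was read as well and holds no CACCTG on either strand. GGAATG, the motif of TEAD factors, was present on either strand at 2 of the 54 starts (3.7%), against 11.9% of all starts. AACCGG, read on either strand as the Grainyhead-like motif, was present at 5 (9.26%), against 5.99%. None of the 3 motifs contains another, and a match describes the letters only.

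DSP was at 3.59, 4.71 and 4.63 FPKM in shNC-1 to shNC-3 and at 0.659, 1.13 and 0.951 FPKM in shACAT2-1 to shACAT2-3. These values rest on 101 to 806 fragments. Every shACAT2 library lay below every shNC library, with the lowest value in shACAT2-1. The mean fell from 4.31 ± 0.622 FPKM (SD, n = 3) to 0.914 ± 0.239 FPKM (SD, n = 3), a level 4.71 times lower. The log2 fold change was −1.47 (SE 0.14, 95% CI −1.81 to −1.14, limma adjusted p = 0.00516), the 10th lowest of all genes tested. On the fragment scale of limma-voom, which compresses low values less, it was −2.25 (adjusted p = 0.000563). The exact two-sided permutation test gave p = 0.1, the smallest that 3 against 3 libraries allow. Leaving out each library in turn kept the limma adjusted p between 0.008 and 0.0472. In bulk RNA, fewer cells of a kind and less RNA per cell cannot be told apart.

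The desmosomal cadherins lay on opposite sides of 0. DSG2, desmoglein 2, was at 14.5, 20.4 and 20.1 FPKM in shNC cells and at 7.3, 13.4 and 10.9 FPKM in shACAT2 cells. The groups did not overlap, and the libraries numbered 1 were the lowest of each group. The mean was 18.3 ± 3.36 against 10.5 ± 3.05 FPKM (SD, n = 3), with a log2 fold change of −0.77 (SE 0.23, 95% CI −1.30 to −0.23, limma adjusted p = 0.104). With the replicate block the adjusted p was 0.0206. DSG2 shares 171 exon bases, 2.76% of its exons, with DSG2-AS1, its antisense gene, and the strand setting of the counting is not stated. DSC2, desmocollin 2, was at 1.8, 2.01 and 1.83 FPKM in shNC cells and at 2.04, 2.8 and 3 FPKM in shACAT2 cells. These groups did not overlap either, with a log2 fold change of 0.32 (SE 0.13, 95% CI 0.01 to 0.63, limma adjusted p = 0.2).

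The plakophilins, which lie in the desmosomal plaque between the cadherins and desmoplakin, differed widely in level. PKP2 was at 1.26, 1.61 and 1.19 FPKM in shNC cells and at 0.58, 0.632 and 0.927 FPKM in shACAT2 cells, all below the shNC values. Its log2 fold change was −0.46 (SE 0.15, 95% CI −0.81 to −0.10, limma adjusted p = 0.129, or 0.117 with the replicate block). The adjusted p was 0.0394 with the filter of 10 fragments in every library on the same scale, and 0.033 with limma-voom, where the log2 fold change was −0.94, so that the call turned with the filter as well as with the scale. PKP4, a more widely expressed relative, had means of 13.5 ± 0.201 and 13.9 ± 0.233 FPKM (SD, n = 3), with an interval of −0.15 to 0.24 for the log2 fold change. PKP1 had 22 fragments in shACAT2-3 and none in the other libraries, and PKP3 had 0 to 2 fragments. JUP, plakoglobin, was low at 0.432 ± 0.0947 and 0.429 ± 0.0604 FPKM (SD, n = 3) from 26 to 40 fragments, and was not tested under the filter. The 8 desmosome genes summed to between 35.0 and 42.8 FPKM in shNC cells and between 24.9 and 32.5 FPKM in shACAT2 cells, most of it DSG2 and PKP4.

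**Figure D2:**
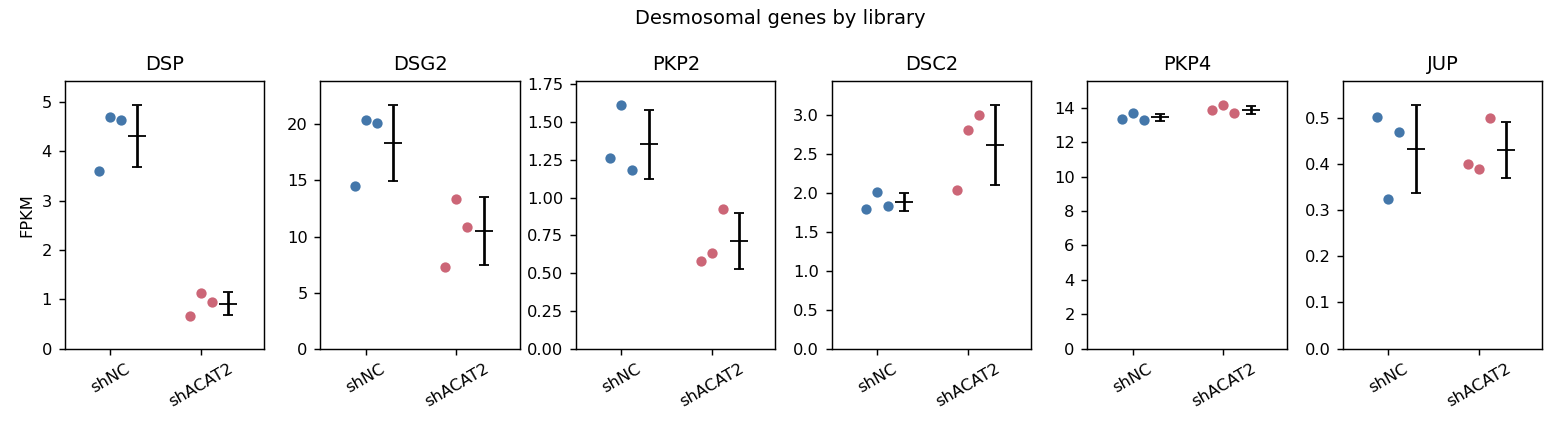
FPKM of desmosome genes in the 3 shNC and 3 shACAT2 libraries, where points are libraries and the bar is the mean ± SD. DSP, DSG2 and PKP2 lie lower in all 3 shACAT2 libraries, DSC2 lies higher, and PKP4 has means of 13.5 and 13.9 FPKM.

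The catenins, which tie classical cadherins to actin, were among the most abundant genes of the set. CTNNA1, alpha-catenin, was at 37.2, 32.2 and 32.1 FPKM in shNC cells and at 48.1, 42.3 and 46.1 FPKM in shACAT2 cells. Every shACAT2 value was above every shNC value, and the mean went from 33.8 ± 2.93 to 45.5 ± 2.95 FPKM (SD, n = 3). The log2 fold change was 0.42 (SE 0.11, 95% CI 0.16 to 0.68, limma adjusted p = 0.0811), and the adjusted p was 0.0337 with the replicate block. The locus on chromosome 5, from 138610967 to 138935034, shares 445 exon bases with LRRTM2 on the opposite strand, 5.04% of the exon length. CTNNB1, beta-catenin, went from 16.3 ± 0.375 to 18.1 ± 0.154 FPKM (SD, n = 3), with no overlap but a limma adjusted p of 0.376. CTNND1, p120-catenin, which holds cadherins at the membrane, had non-overlapping values in the other direction, 26.9 ± 2.08 and 22.8 ± 1.28 FPKM (SD, n = 3, limma adjusted p = 0.242).

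Neither of the 2 plaque genes of the tight junction tested, TJP1 and CGN, passed the threshold. TJP1, zonula occludens 1, was at 10.7, 12.9 and 13.2 FPKM in shNC cells and at 6.99, 11.8 and 11.4 FPKM in shACAT2 cells. The groups overlapped, with shACAT2-1 lowest, and the log2 fold change of −0.29 (SE 0.20, 95% CI −0.75 to 0.18) had a limma adjusted p of 0.426. CGN, cingulin, which attaches the junction to the cytoskeleton, also overlapped, at 3.01 ± 0.333 and 2.63 ± 0.528 FPKM (SD, n = 3, limma adjusted p = 0.557).

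OCLN and F11R, the transmembrane proteins occludin and junctional adhesion molecule A, stayed under the filter in both groups, and both were lower in each shACAT2 library. OCLN was at 0.609, 0.721 and 0.678 FPKM in shNC cells and at 0.419, 0.329 and 0.325 FPKM in shACAT2 cells, from 33 to 79 fragments. In limma-voom its log2 fold change was −0.90 (SE 0.21, 95% CI −1.38 to −0.43, adjusted p = 0.0336). With limma the adjusted p was 0.031 for genes with 10 fragments in every library and 0.496 without a filter. F11R was at 0.426, 0.56 and 0.515 FPKM in shNC cells and at 0.26, 0.202 and 0.158 FPKM in shACAT2 cells, from 12 to 46 fragments. Its limma-voom log2 fold change was −1.27 (SE 0.29, 95% CI −1.92 to −0.62, adjusted p = 0.0315), and with limma the adjusted p was 0.0259 for genes with 10 fragments in every library and 0.396 without a filter. Of its exon bases, 36.6% are shared with the same-strand gene AL591806.3, so that its level is uncertain.

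TJP3, zonula occludens 3, and the gap junction gene GJB2, connexin 26, were the other scarce genes of the limma-voom fit without overlap. TJP3 had 0.454 ± 0.174 and 0.198 ± 0.00921 FPKM (SD, n = 3), with limma-voom adjusted p = 0.111. GJB2 had 0.776 ± 0.0611 and 0.393 ± 0.176 FPKM (SD, n = 3), with limma-voom adjusted p = 0.11. Of the 11 genes in the limma-voom fit that lay under the filter of 1 FPKM, 4 (36.4%) did not overlap, all lower in shACAT2 cells, against 23.4% of all genes of that kind. GJA1, connexin 43, was the most abundant gene of the set in shNC cells, while CTNNA1 had the higher mean in shACAT2 cells. GJA1 was at 38.7, 44.7 and 47.0 FPKM in shNC cells and 33.8, 47.6 and 43.5 FPKM in shACAT2 cells. Its groups overlapped, and its log2 fold change of −0.07 had an interval of −0.44 to 0.29.

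**Figure D3:**
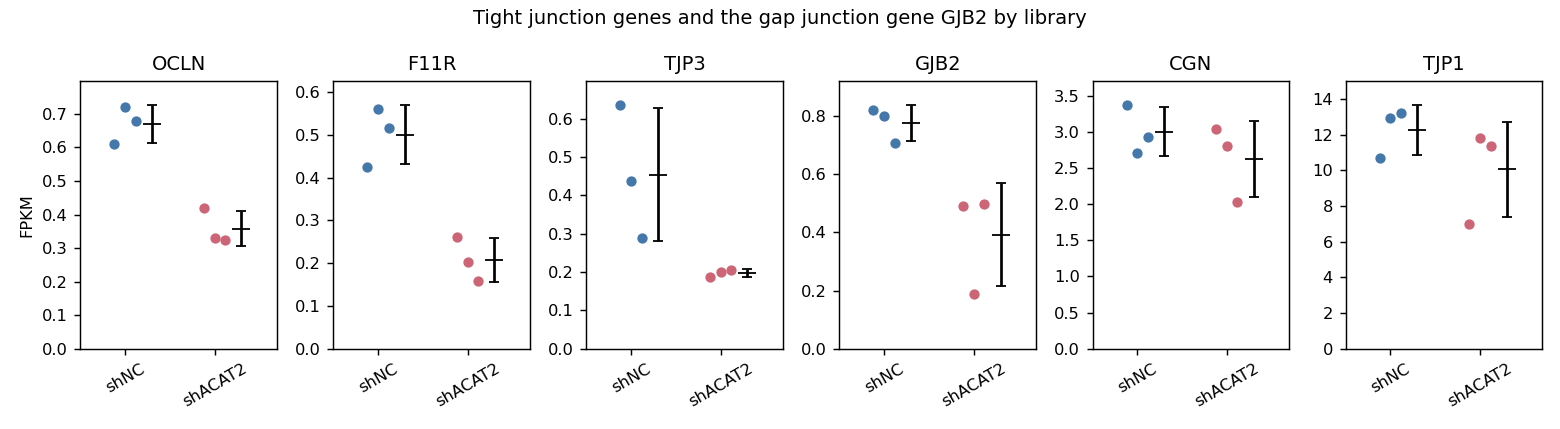
FPKM of tight junction genes and GJB2 in the 3 shNC and 3 shACAT2 libraries, where points are libraries and the bar is the mean ± SD. OCLN, F11R, TJP3 and GJB2 lie below 1 FPKM and do not overlap between groups, while CGN and TJP1 do.

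The claudins, which set the permeability of the tight junction, were for the most part silent. Of the 24 claudins, 3 had a mean of at least 1 FPKM in shNC cells, and 15 had under 10 fragments in every library. None passed the test among the 3 tested by limma, or among the 7 that limma-voom reached. CLDN15, a pore-forming claudin of the intestine, led with 12.5, 10.6 and 10.97 FPKM in shNC cells and 11.3, 9.11 and 7.86 FPKM in shACAT2 cells. Its groups overlapped, with a log2 fold change of −0.26 (SE 0.14, 95% CI −0.59 to 0.07, limma adjusted p = 0.317). CLDN12 had means of 3.32 ± 0.695 and 3.51 ± 0.661 FPKM (SD, n = 3). CLDN7, at 1.05, 1.04 and 0.954 FPKM in shNC cells, spread from 0.348 in shACAT2-3 to 1.16 in shACAT2-2.

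CLDN18, whose stomach isoform marks gastric epithelium, was at 0.362 ± 0.0682 and 0.265 ± 0.0955 FPKM (SD, n = 3), from 10 to 28 fragments. CLDN4, a sealing claudin common in carcinomas, was at 0.483 ± 0.141 and 0.481 ± 0.143 FPKM (SD, n = 3). CLDN3 had 2 to 7 fragments per library and CLDN1 6 to 12. No fragment was counted for CLDN8, CLDN34 and CLDN22, where the 3 fragments that a count of 0 allows equal at most 0.0967, 0.201 and 0.0775 FPKM. CLDN24 was higher in every shACAT2 library, at 0.182 ± 0.0820 and 0.481 ± 0.0758 FPKM (SD, n = 3), but from only 1 to 6 fragments. All exon bases of CLDN22 lie opposite an exon of WWC2, and CLDN24 is a close copy of it, so neither value is certain. A fragment in shACAT2-3 alone was found for 7 genes of the set, 6 of them claudins.

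None of the 4 polarity genes tested passed the threshold. SCRIB, the Scribble scaffold of the basolateral side, was at 29.5, 24.4 and 25.1 FPKM in shNC cells and at 30.9, 23.1 and 15.7 FPKM in shACAT2 cells. The shACAT2 values enclosed the shNC values, and the log2 fold change of −0.22 had an interval of −0.76 to 0.33. PARD3, the Par complex scaffold, had 12.6 ± 0.875 and 13.7 ± 1.02 FPKM (SD, n = 3, limma adjusted p = 0.568). LLGL2, a basolateral partner of Scribble, had 1.43 ± 0.19 and 1.40 ± 0.105 FPKM, and PARD6B, a Par complex adaptor, 1.12 ± 0.0964 and 1.13 ± 0.0303 FPKM (SD, n = 3). CRB3, the apical Crumbs protein of epithelia, had only 1 to 12 fragments per library.

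The markers of the epithelial state were low or near 0 in these gastric carcinoma cells. EPCAM, the pan-epithelial adhesion molecule, had 0, 0 and 3 fragments in shNC cells and 0, 4 and 8 in shACAT2 cells. ESRP1 and ESRP2, the epithelial splicing factors, had 4 to 22 and 14 to 31 fragments. GRHL2 and OVOL1, transcription factors that maintain epithelium, had at most 6 and 4 fragments, while GRHL1, the most abundant of these regulators, was at 0.559, 0.496 and 0.642 FPKM in shNC cells and at 0.431, 0.439 and 0.520 FPKM in shACAT2 cells, with overlapping groups. KRT18, a simple-epithelial keratin, had at most 2 fragments, and KRT8, its partner, 0.528 ± 0.124 and 0.676 ± 0.141 FPKM (SD, n = 3).

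CDH1, E-cadherin, was at 0.222, 0.12 and 0.141 FPKM in shNC cells and at 0.608, 0.828 and 1.15 FPKM in shACAT2 cells, higher in every shACAT2 library. Its limma-voom log2 fold change was 2.40 (adjusted p = 0.00604), and limma without a filter gave an adjusted p of 0.167. VIM, vimentin, was at 263 ± 25.6 and 406 ± 61 FPKM (SD, n = 3), with a limma adjusted p of 0.0634, or 0.0265 with the replicate block. The 9 mesenchymal markers summed to between 392 and 461 FPKM in shNC cells and between 561 and 738 FPKM in shACAT2 cells, most of it VIM. Of 8 tested, 1 passed, SNAI2, at 4.02 ± 0.512 and 6.97 ± 0.320 FPKM (SD, n = 3, limma adjusted p = 0.0179, or up to 0.112 with a library left out). SNAI1 and S100A4 also were higher without overlap, while FN1, ZEB1, ZEB2, TWIST1 and the scarce CDH2 overlapped between the groups. Beside these marker lists, 5.1% of all genes tested passed and 30.7% did not overlap. The sum of 7 fibroblast markers was between 306 and 341 FPKM and between 444 and 537 FPKM, most of it COL3A1, with 3 of 6 tested passing. Those were COL1A1, DCN and LUM, all higher. PDGFRA went the other way without overlap, at 2.46 ± 0.183 and 1.56 ± 0.185 FPKM (SD, n = 3, limma adjusted p = 0.0701). The sum of 12 gastric epithelial markers, of which 4 were at 0, was between 2.57 and 3.05 FPKM and between 4.85 and 5.68 FPKM, most of it MUC1. KRT8 overlapped between the groups, and KRT18, KRT19, KRT20, VIL1 and CEACAM6 had at most 11 fragments. The 1 tested, the membrane mucin MUC1, rose from 2.09 ± 0.120 to 3.52 ± 0.222 FPKM (SD, n = 3, limma adjusted p = 0.0245). For MUC1 the limma adjusted p was 0.0318 to 0.132 with a library left out, and 0.0874 without a filter. The leukocyte list reached at most 1.85 FPKM and the endothelial list 0.444 FPKM. Their part in the results was not tested.

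Other genes of the same junctions and polarity pathways were taken from a second list of 119, of which 56 were tested. Of these, 6 (10.7%, beside 5.1% of all genes tested) passed, 3 higher and 3 lower in shACAT2 cells. The list was written with earlier results of these data known, so this share describes the list only. The median log2 fold change of the 56 was −0.02. The 3 lower genes act in planar cell polarity, which orients cells within the plane of the sheet. VANGL1, a core membrane protein of that pathway, was at 5.42, 4.8 and 4.45 FPKM in shNC cells and at 2.17, 2.5 and 2.89 FPKM in shACAT2 cells (log2 fold change −0.75, SE 0.11, limma adjusted p = 0.019). Its paralog VANGL2 was at 5.52, 4.91 and 4.62 FPKM in shNC cells and at 3.31, 2.67 and 3.12 FPKM in shACAT2 cells (limma adjusted p = 0.0301). CELSR2, the atypical cadherin of the pathway, was at 6.82, 6.26 and 6.23 FPKM in shNC cells and at 3.86, 4.12 and 3.82 FPKM in shACAT2 cells (limma adjusted p = 0.0149). For all 3 genes, every shACAT2 library lay below every shNC library.

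The 3 higher genes act elsewhere. KLF5, a transcription factor of gut epithelium, rose from 11.5 ± 0.834 to 28.4 ± 2.44 FPKM (SD, n = 3), with a log2 fold change of 1.24 (SE 0.11, limma adjusted p = 0.00397). VCL, vinculin, which binds alpha-catenin under tension, rose from 37.8 ± 0.99 to 56.2 ± 4.27 FPKM (SD, n = 3, limma adjusted p = 0.0308). PERP, a desmosome-associated p53 target, rose from 7.70 ± 0.537 to 11.7 ± 1.47 FPKM (SD, n = 3, limma adjusted p = 0.0456), in the direction opposite to DSP. When any of the shNC libraries or shACAT2-2 was left out, KLF5 was the only gene of the 6 to pass. Calls over all genes tested fell as well, from 706 in the main fit to between 63 and 135 in those fits. The loss of the other genes was therefore not particular to this list.

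**Figure D4:**
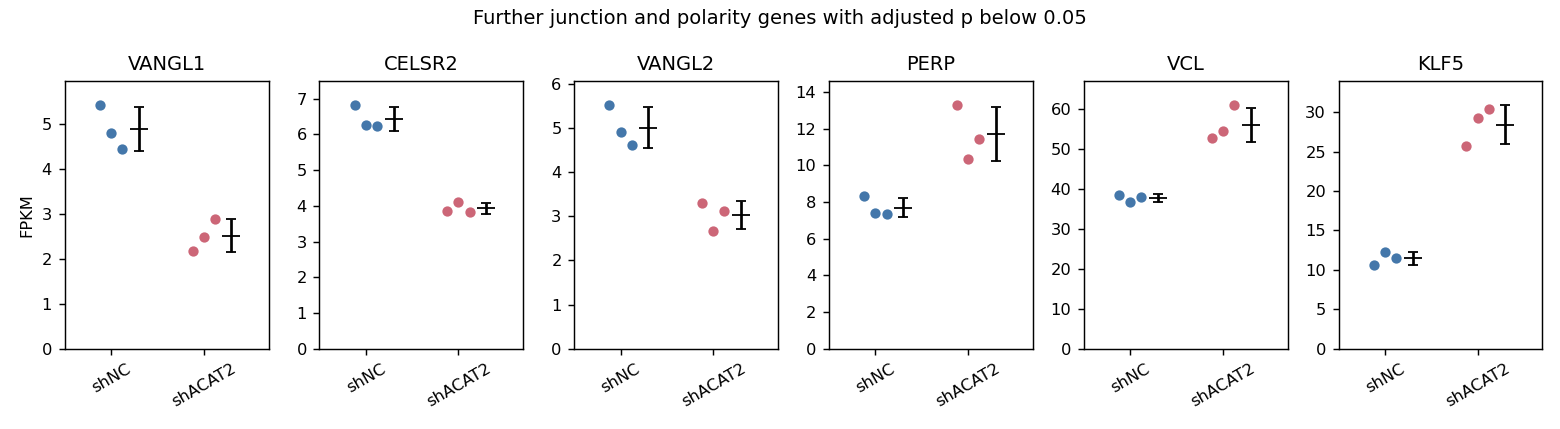
FPKM of the 6 further junction and polarity genes with a limma adjusted p below 0.05 in the 3 shNC and 3 shACAT2 libraries, where points are libraries and the bar is the mean ± SD. VANGL1, CELSR2 and VANGL2 lie lower and PERP, VCL and KLF5 higher in every shACAT2 library.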

How the data were processed

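Total RNA of HGC-27 cells was sequenced by the study's provider. The submitters' processing notes name HISAT2 2.0.5, featureCounts 1.5.0-p3, DESeq2 1.20.0 and hg38. The authors deposited FPKM values for 58735 genes, and all 53 genes of the set have the start, end and exon length of GENCODE release 29. The sample titles gave the groups and replicate numbers. Fragments were read back from FPKM and gene length, and 100% of values came out whole within 0.05 fragments.

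The limma-trend test (limma 3.58.1, run in R 4.3.3) was applied to log2(FPKM + 1) of genes whose mean reached 1 FPKM in shNC or shACAT2 cells, with Benjamini-Hochberg adjustment over all of them. This scale makes the fold change of a low gene look smaller than it is. Other steps used Python 3.11.15, and the scripts were tested on simulated data. Since the values were FPKM and not counts, no count model was the main test. The deviations of same-numbered libraries from the means of their groups correlated at 0.445, 0.126 and 0.171, all above 0.1, so the replicate number was taken to pair them. The replicate numbers come from the sample titles, which do not name pairs, and shNC-2 with shACAT2-3 and shNC-3 with shACAT2-2 gave 0.198 and 0.141.

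The genes and lists were chosen with earlier results of these data known. By rule, values per library were to be given for genes of the set that passed the test and the most abundant gene of each role, and the passing genes of the further list were to be named. KLF5, VCL and PERP are given by means. DSG2, PKP2, DSC2, OCLN, F11R, CLDN7 and MUC1 were described after their values had been seen. Exons of 18 of the 53 genes are shared with another gene, and the strand setting of the counting is not given in the sources used here. The confidence intervals cover the spread between libraries, and the floors of 3 fragments cover counting error only. The alternatives were other scalings, filters and pseudocounts, limma-voom, the replicate block, shNC-2 with shNC-3 averaged, another threshold and each library left out.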

Additional observations from a re-analysis of the deposited data

How the results depend on the processing

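The fall of DSP passed the threshold under every alternative run, with adjusted p between 0.000563 and 0.0472, and no gene of the set changed sign after passing. The count of 1 gene of the set, 1 lower and 0 higher, became 4, all lower, under a filter of 10 fragments in each library, 2, both lower, with limma-voom, and 4, all lower, with limma-voom on genes with 10 fragments in 3 libraries, which was added after seeing the data. It stayed at 1 with each library left out. With the replicate block it was 3, of which 2 were lower and 1 higher, and the block moved the count of the further list from 6 to 10. That count was 1 when no filter was set, 10 under the filter of 10 fragments, 11 and 13 in the limma-voom fits, 1 with shNC-2 and shNC-3 averaged, 1 at an absolute log2 fold change above 1, and 1 to 9 with a library left out. The counts over all genes changed as well. They were 706 of 13832 in the main fit, 1727 of 13832 with the block and 209 of 41161 with no filter. The filter of 10 fragments gave 1034 of 14394, and the limma-voom fits 1016 of 13832 and 1155 of 16299. With shNC-2 and shNC-3 averaged 83 of 13838 passed, and with a library left out 63 to 862 genes. The median of the tested genes of the set, −0.11, was −0.14 with upper-quartile scaling, −0.16 with total fragments, −0.14 with TMM, −0.0016 with no filter, −0.071 with a filter on the mean of all libraries, −0.14 with a pseudocount of 0.1, −0.14 and −0.23 in the limma-voom fits, and −0.18 to −0.015 with a library left out. The medians with no filter, with the filter on the mean of all libraries, in the wider limma-voom fit and without shNC-1 are over other genes. The median over all genes tested moved too. It was 0.016 in the main fit, −0.011 with upper-quartile scaling, −0.028 with total fragments and −0.012 with TMM. The cause of these shifts was not tested. Depth limits most claudins, EPCAM and GRHL2, where a few fragments per library allow no comparison.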
